A study of Anas platyrhynchos with 6 samples.

Results

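Matrix metalloproteinases are secreted or membrane-bound zinc enzymes that cut collagens and other proteins of the extracellular matrix. They are made as inactive precursors, and tissue inhibitors of metalloproteinases (TIMPs) block the active enzymes. In the ovary of birds and mammals they are known for matrix turnover while follicles grow, rupture and regress. The genes described here are MMP2, MMP7, MMP9, MMP11, MMP13 and MMP27, 6 genes of 16450 (17169 transcripts) in a table of transcript levels. For 5 of them a row was found by gene symbol, while MMP2 had no symbol in the table and was found through its Entrez identifier. MMP2 had 3 transcript rows, and the one with the highest mean FPKM over the 6 ovaries was selected on that value.

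Ovarian RNA was sequenced from 6 ducks (Anas platyrhynchos) of a full-sib family, killed at 71 weeks after feed had been withheld. Of these, 3 ducks had a high egg number (HEN) and 3 a low egg number (LEN). The labels name no treatment, strain or genotype, and each duck gave 1 library. The unit, FPKM, is a fragment count scaled to transcript length and library size, which allows levels of different genes to be set side by side. From the steps between low values, library depths of 18213744 to 19831761 fragments were inferred.

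The libraries did not separate by egg number. Across the 13328 transcripts whose mean reached 1 FPKM, HEN replicates 2 and 3 correlated at 0.965 with each other and at 0.634 to 0.779 with LEN, whereas HEN replicate 1 correlated at 0.933 to 0.964 with LEN. Of 9 oocyte and germ cell markers measured, the summed level was 534 FPKM in HEN replicate 1, 11.7 and 10.2 FPKM in HEN replicates 2 and 3, and 564 to 1360 FPKM in LEN. The germ cell genes DDX4 and DAZL were at 0 in HEN replicate 2. Of the 9 markers 8 had a lower HEN mean. The exception was SYCP3, whose position overlaps another gene. It measured 4.47, 8.10 and 5.30 FPKM across HEN replicates 1 to 3, versus 3.55, 6.75 and 4.63 FPKM across LEN. The labelled tissue was therefore poor in transcripts of most of these germ cell markers in HEN replicates 2 and 3. In bulk tissue, fewer cells of a type and less RNA per cell cannot be told apart. Every metalloproteinase result below is given by library for this reason.

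The collagenase MMP13 had the highest level of the 6 genes in both HEN replicates 2 and 3. MMP13 (ENSAPLG00000007468, scaffold KB742481.1 from 799965 to 807417, minus strand), which cleaves fibrillar collagen, measured 1.08, 1338 and 570.4 FPKM across HEN replicates 1 to 3. It measured 2.48, 9.29 and 1.79 FPKM across LEN replicates 1 to 3. HEN replicates 2 and 3 were high, and HEN replicate 1 lay below all LEN ovaries, so that the groups overlapped. These levels corresponded to 25, 30520 and 12634 fragments in HEN and 58, 224 and 40 in LEN, counted at the shortest transcript length that gave whole numbers. Among 13328 transcripts MMP13 was the 22nd highest in HEN replicate 2 and the 76th highest in HEN replicate 3, but 12899th in HEN replicate 1. The difference between group means was 4.65 ± 2.27 (SE) on the log2(FPKM + 1) scale, rank 1 of the 13328 transcripts. That scale, used for all differences here, understates those of low genes. Its SD over the HEN ovaries was 5.07 on that scale, against 1.01 over the LEN ovaries.

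The gelatinases MMP2 and MMP9 degrade denatured collagen and basement membrane collagen. MMP2 (ENSAPLG00000003788, scaffold KB743829.1 from 951 to 15945, plus strand) measured 55.9, 596 and 432 FPKM across HEN replicates 1 to 3, versus 65.7, 75.9 and 41.4 FPKM across LEN replicates 1 to 3. HEN replicate 1 lay within the LEN range. MMP2 was the member with the highest level in all 3 LEN ovaries and in HEN replicate 1. The group difference was 2.03 ± 0.85 (SE). All 3 transcript rows of the gene put the libraries in the same order, but they share start and end and are not separate measurements. MMP9 (ENSAPLG00000014156, scaffold KB743810.1 from 349454 to 353120, minus strand) measured 6.51, 502 and 362 FPKM across HEN versus 5.18, 43.1 and 5.20 FPKM across LEN. In LEN replicate 2 MMP9 was 8.32-fold and 8.29-fold above LEN replicates 1 and 3, and it was above HEN replicate 1 as well. The group difference of MMP9 was 3.22 ± 1.65 (SE).

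MMP11, stromelysin 3, is activated inside the cell by furin and is made mainly by stromal cells in mammals. MMP11 (ENSAPLG00000003064, scaffold KB743518.1 from 12834 to 20686, plus strand) measured 8.04, 337 and 166 FPKM across HEN replicates 1 to 3, versus 7.55, 13.4 and 5.13 FPKM across LEN replicates 1 to 3. HEN replicate 1 again lay within the LEN range, and the difference was 3.13 ± 1.26 (SE).

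MMP7 and MMP27 differed between HEN replicates 2 and 3 more than the other members did. MMP7 (ENSAPLG00000005792, scaffold KB742481.1 from 641794 to 645789, minus strand) is matrilysin, a small enzyme that in mammals is made mostly by epithelia. It measured 0, 736 and 4.50 FPKM across HEN replicates 1 to 3, versus 0.270, 2.41 and 1.13 FPKM across LEN replicates 1 to 3. These were 0, 13293 and 79 fragments in HEN and 5, 46 and 20 in LEN. A single ovary, HEN replicate 2, was high, and MMP7 was there 163-fold above HEN replicate 3 (95% exact interval 131 to 207, counting error only). No other of the 13328 transcripts had a larger excess of HEN replicate 2 over HEN replicate 3 on the log2(FPKM + 1) scale. At 0 fragments in HEN replicate 1, a level of up to 0.164 FPKM is allowed (3 fragments in that library). The group difference of 2.93 ± 2.20 (SE) therefore rested on HEN replicate 2, and without it the difference was 0.16.

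MMP27 (ENSAPLG00000005931, scaffold KB742481.1 from 711540 to 718581, minus strand), a little studied relative of the stromelysins, measured 3.53, 128 and 17.9 FPKM across HEN versus 0.661, 2.99 and 1.58 FPKM across LEN. It was the one member whose lowest HEN ovary was above the highest LEN ovary, and the margin there was 3.53 against 2.99 FPKM. HEN replicate 2 was 7.17-fold above HEN replicate 3 (95% exact interval 6.50 to 7.91). For MMP2, MMP9, MMP11 and MMP13 the same ratio was 1.38, 1.39, 2.03 and 2.35. The group difference of MMP27 was 3.11 ± 1.12 (SE).

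**Figure D1:**
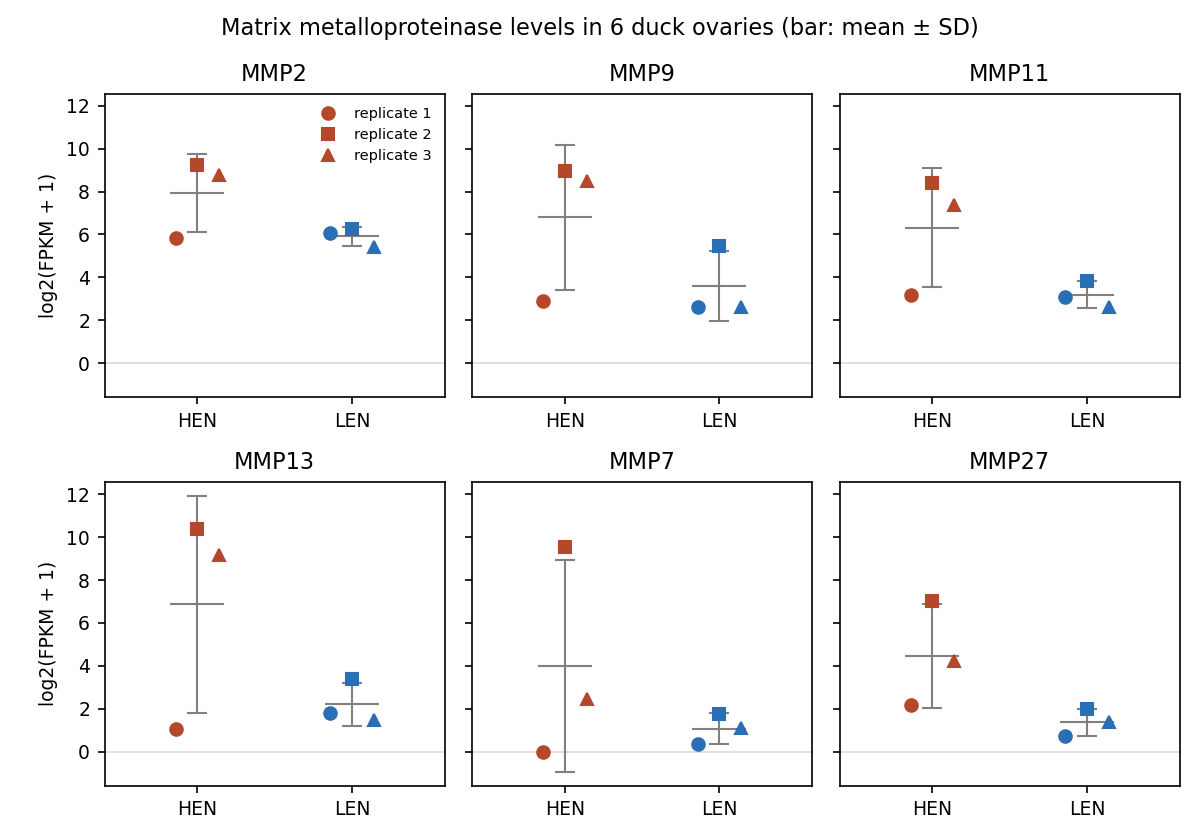
Levels of the 6 metalloproteinase genes, as log2(FPKM + 1), in 3 HEN and 3 LEN ovaries. Points are libraries by replicate, and the grey bar is the mean ± SD. In all 6 panels HEN replicates 2 and 3 lie above the other points, and for MMP7 replicate 2 is at 736 FPKM and replicate 3 at 4.50 FPKM.

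In all 6 genes HEN replicate 2 was the highest HEN ovary, HEN replicate 3 the next and LEN replicate 2 the highest LEN ovary. Over the 13328 transcripts, HEN replicate 2 was the highest HEN ovary for 18.8% and LEN replicate 2 the highest LEN ovary for 33.3%. Pearson's r of log2(FPKM + 1) between members over the 6 ovaries was 0.961 to 0.997 among MMP2, MMP9, MMP11 and MMP13. It was 0.925 between MMP7 and MMP27, and 0.785 to 0.834 between MMP7 and the other 4. Between MMP27 and the same 4 it was 0.8975 (MMP9) to 0.946 (MMP11). These values describe 6 libraries, of which 2 stand apart from the rest, and carry no test.

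The genes were chosen by name with their FPKM levels in these same ovaries known, so their group differences are descriptions. With limma (moderated statistics with a mean-variance trend, p-values adjusted by Benjamini-Hochberg over 13328 transcripts), 0 of the 6 were called at an adjusted p under 0.05, where 0% of all transcripts were called. At an unadjusted p under 0.05, 3 of the 6 (MMP2, MMP11 and MMP27) were higher in HEN, where 5.1% of all transcripts were. The groups did not overlap for 1 of the 6, where 6.92% of all transcripts were higher in all HEN ovaries. The median difference of the 6 was 3.12, and that of all transcripts was -0.24. After upper quartile scaling these medians were 3.37 and 0.01, and after quantile normalization 3.16 and 0.07, so the scaling left the members' direction as it was. Without HEN replicate 1 all 6 were called as higher in HEN, at differences of 3.08 (MMP2) to 7.56 (MMP13), where 11.8% of all transcripts were called so. With arrayWeights, which gave that library a weight of 0.114, all 6 were likewise called where 16.5% of all transcripts were. Both fits set mainly HEN replicates 2 and 3, which stand apart from the other libraries, against LEN. The LEN side of the arrayWeights fit was mainly LEN replicate 1, at a weight of 5.62. LEN replicates 2 and 3 had weights of 1.19 and 0.556. The members were chosen with their levels in HEN replicates 2 and 3 known, so the calls of both fits follow from the choice and are no support. Calls of other genes in these fits, given below, are likewise descriptions. Without HEN replicate 2, MMP2, MMP9, MMP11, MMP13 and MMP27 differed by 1.39, 2.13, 2.09, 2.89 and 1.85. Without HEN replicates 2 and 3 together, none of the 6 was called, where 0.0075% of all transcripts were, and 5 of the 6 had a lower level in the remaining HEN ovary than the LEN mean, with MMP27 the exception at 0.81.

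**Figure D2:**
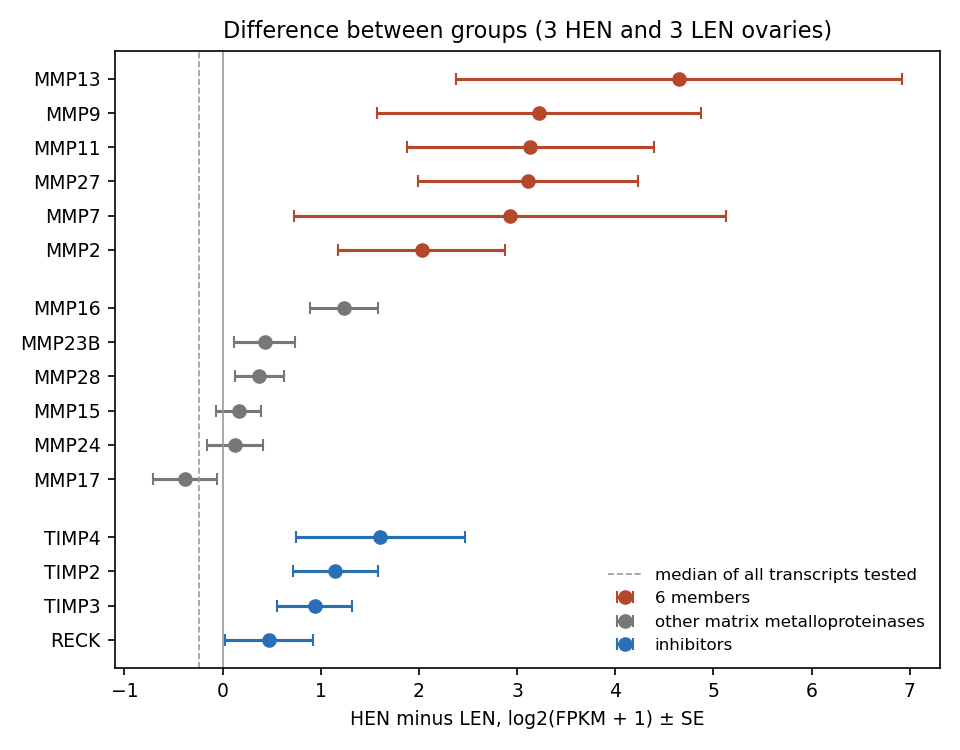
Difference between the HEN and LEN means on the log2(FPKM + 1) scale, with its SE from limma. Shown are the 6 members, and the other matrix metalloproteinases and the inhibitors found by symbol. The members lie between 2.03 and 4.65, and the dashed line is the median of all transcripts tested, at -0.24.

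The summed level of the 6 genes was 75.1, 3638 and 1554 FPKM in HEN replicates 1, 2 and 3 and 81.9, 147 and 56.2 FPKM in LEN replicates 1, 2 and 3. This was 0.0168%, 0.815% and 0.365% of all FPKM in HEN and 0.0115% to 0.0353% in LEN. The make-up of the sum differed as well as its size. MMP2 supplied 74.5% in HEN replicate 1 and 51.6% to 80.3% in LEN, but 16.4% and 27.8% in HEN replicates 2 and 3. MMP13 supplied 36.8% and 36.7% in HEN replicates 2 and 3, against 1.44% in HEN replicate 1 and 3.03% to 6.32% in LEN. MMP9 supplied 29.3% in LEN replicate 2, the highest share for MMP9 in any ovary, and MMP7 supplied 20.2% in HEN replicate 2 and at most 2.02% elsewhere. The share of MMP11 was 9.11% to 10.7% in all 6 ovaries, although its level varied from 5.13 to 337 FPKM.

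Of 7 inhibitors looked for by symbol, 4 were found, and TIMP1, A2M and PZP were not. The 4 followed the same libraries at a smaller size. TIMP2 measured 62.7, 207 and 141 FPKM across HEN versus 50.1, 64.2 and 50.6 FPKM across LEN, differing by 1.15 ± 0.43 (SE). TIMP4 measured 14.2, 183 and 25.05 FPKM across HEN versus 13.7, 15.02 and 9.96 FPKM across LEN. HEN replicate 2 was thus the single high ovary for TIMP4, as for MMP7. TIMP3, which binds to the matrix, measured 58.7, 142 and 119 FPKM across HEN versus 48.7, 69.96 and 40.1 FPKM across LEN. The positions of TIMP3 and TIMP4 overlap another gene, and strandedness was not stated, so fragments of the overlapping genes cannot be told apart. RECK, a membrane-anchored inhibitor, measured 9.80, 35.5 and 17.3 FPKM across HEN versus 13.4, 15.5 and 10.4 FPKM across LEN. Of these 4 inhibitors, 0 passed limma's test (adjusted p = 0.226 for TIMP2 and TIMP3, 0.269 for TIMP4 and 0.491 for RECK), and 2 had an unadjusted p under 0.05, both higher in HEN, where 5.1% of all transcripts were. Their median difference was 1.05, and it was 0.61 without HEN replicate 2. All 4 passed as higher in HEN without HEN replicate 1, a fit that called 11.8% of all transcripts higher. The summed level of the 6 metalloproteinases was 6.84 and 5.46 times that of TIMP2, TIMP3 and TIMP4 in HEN replicates 2 and 3. It was 0.553 times in HEN replicate 1 and 0.558 to 0.986 times in LEN. These are ratios of RNA sums, with TIMP1 missing and the 6 genes chosen with their levels known. They do not measure a balance of enzyme and inhibitor.

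**Figure D3:**
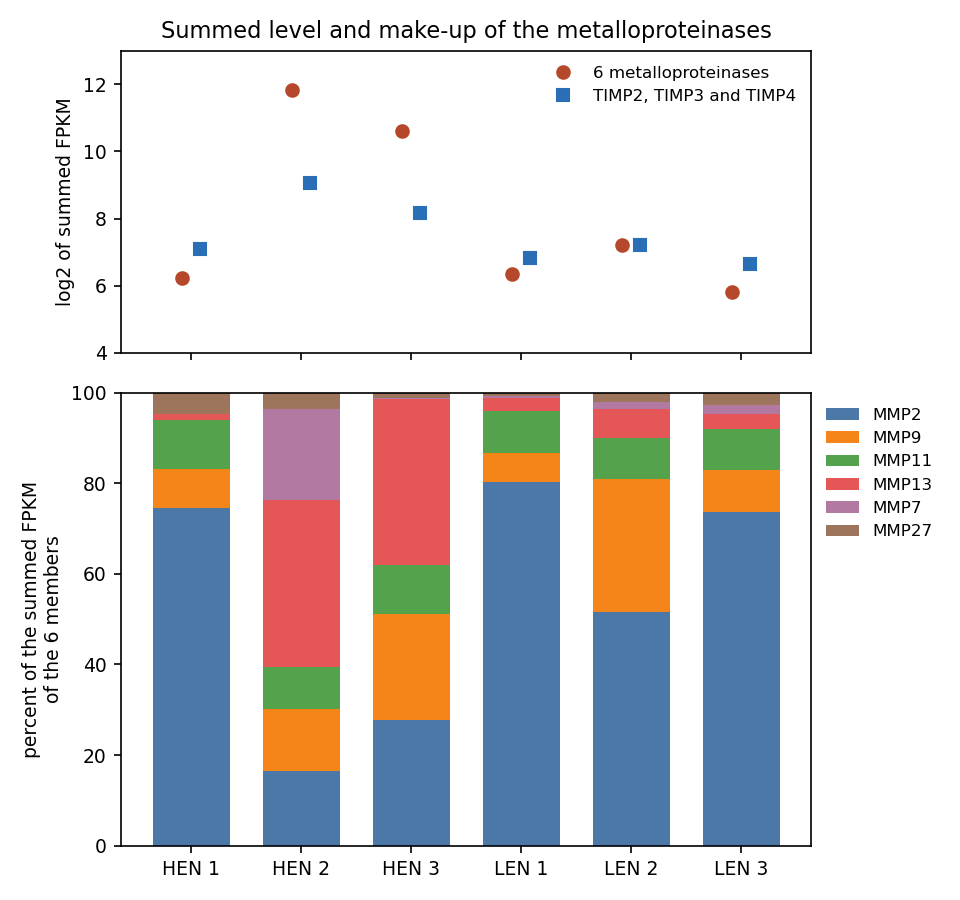
Upper panel, log2 of the summed FPKM of the 6 metalloproteinases and of the 3 TIMPs in each ovary. Lower panel, the percent of the metalloproteinase sum that each gene supplied, with MMP13 at 36.8% and 36.7% in HEN replicates 2 and 3 and MMP2 above 50% in the other ovaries.

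The search by symbol found 6 further matrix metalloproteinases of 18 looked for. Their differences were smaller than those of the members, which were chosen with their levels known. Rows without a symbol were not searched, so others may be present. The unnamed genes between MMP27 and MMP13, described below, were not identified and are not among the 6. The membrane-type enzyme MMP16 measured 3.36, 6.36 and 4.18 FPKM across HEN versus 1.39, 1.97 and 0.786 FPKM across LEN, differing by 1.24 ± 0.35 (SE). All HEN ovaries, replicate 1 included, were above all LEN ovaries for MMP16, and likewise for MMP28 (5.47 to 7.37 FPKM in HEN and 4.70 to 5.03 FPKM in LEN), where 6.92% of all transcripts were. The membrane-type enzymes MMP15, MMP24 and MMP17 differed by 0.16 ± 0.23, 0.13 ± 0.28 and -0.38 ± 0.33 (SE), and MMP23B by 0.43 ± 0.31 (SE). Their direction depended on the libraries or the scaling: MMP17 was higher in HEN after quantile normalization, and 2 of the 6 were lower in HEN without LEN replicate 3. None of the 6 passed limma's test (adjusted p from 0.226 for MMP16 to 0.775 for MMP24), and 1 had an unadjusted p under 0.05, higher in HEN as 5.1% of all transcripts were. MMP16 alone was called once HEN replicate 1 was left out (limma adjusted p = 0.00957), as higher in HEN, where 11.8% of all transcripts were. The median difference of the 6 was 0.27, with 0.53 after upper quartile scaling, 0.69 after quantile normalization and 0.13 with arrayWeights. Their summed level spanned 49.8 to 61.6 FPKM in HEN and 39.9 to 47.3 FPKM in LEN, with HEN replicate 1 the highest.

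MMP7, MMP27 and MMP13 lie on the same strand of scaffold KB742481.1, within 166 kb, and 5 transcripts are placed from MMP7 to MMP13. The 2 transcripts in between that carry no symbol were chosen for their position. ENSAPLG00000006797 (from 759802 to 766198) measured 19.9, 1397 and 1265 FPKM across HEN replicates 1 to 3, versus 9.53, 51.3 and 13.3 FPKM across LEN replicates 1 to 3. Its levels in HEN replicates 2 and 3 were above those of all 6 members in the same libraries. The difference of 4.06 ± 1.62 (SE) was rank 3 of all transcripts tested (limma adjusted p = 0.226), and HEN replicate 1 lay within the LEN range. ENSAPLG00000005987 (from 724315 to 731064) measured 0, 7.62 and 13.2 FPKM across HEN versus 0, 0.573 and 0 FPKM across LEN, differing by 2.09 ± 0.94 (SE, limma adjusted p = 0.23). Its mean reached the filter of 1 FPKM only through HEN replicates 2 and 3, so this difference is a description. No source used here says how fragments of similar sequence were shared out between these genes.

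The 6 named genes placed around this stretch had smaller differences than MMP7, MMP27 and MMP13. BIRC2, an inhibitor of apoptosis, measured 38.0, 55.2 and 40.9 FPKM across HEN versus 43.3, 40.8 and 46.8 FPKM across LEN. The groups overlapped for BIRC2, and its difference was 0.02 ± 0.22 (SE). DCUN1D5, on the side of MMP13, differed by -0.20 ± 0.25 (SE), and DYNC2H1 beyond it by 0.02 ± 0.28 (SE). TMEM123, the nearest gene to MMP7, measured 29.4, 151 and 78.9 FPKM across HEN versus 18.6, 31.6 and 26.1 FPKM across LEN, differing by 1.47 ± 0.57 (SE, adjusted p = 0.226). YAP1 and PDGFD, the outermost of these genes, were likewise highest in HEN replicates 2 and 3. YAP1 measured 29.2, 61.1 and 54.03 FPKM across HEN versus 30.1, 41.8 and 18.3 FPKM across LEN, differing by 0.67 ± 0.40 (SE, limma adjusted p = 0.302). PDGFD measured 22.4, 68.7 and 48.1 FPKM across HEN versus 22.7, 31.1 and 12.9 FPKM across LEN, differing by 0.97 ± 0.48 (SE, adjusted p = 0.247). Once HEN replicate 1 was left out, the limma adjusted p was 0.0308 for YAP1, 0.0101 for PDGFD and 0.00107 for TMEM123. That fit called 11.8% of all transcripts higher in HEN.

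**Figure D4:**
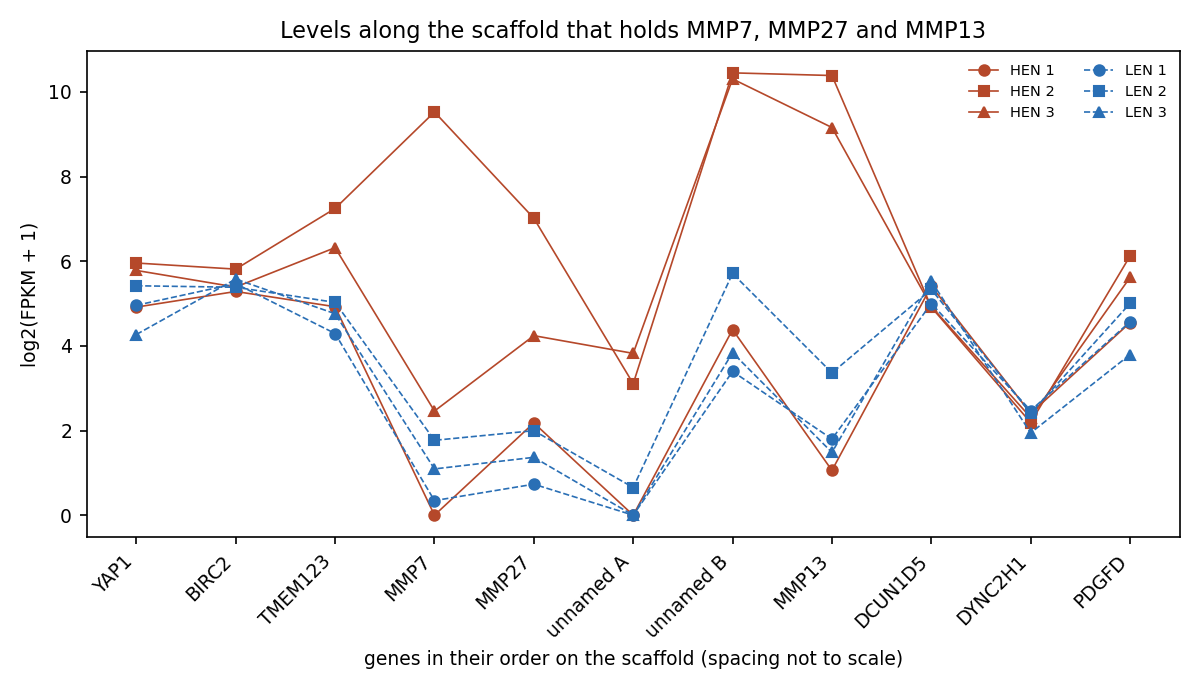
Levels, as log2(FPKM + 1), of genes in their order along scaffold KB742481.1 in the 6 ovaries, where unnamed A and B are ENSAPLG00000005987 and ENSAPLG00000006797. HEN replicates 2 and 3 are above the other ovaries at each gene from TMEM123 to MMP13 and at YAP1 and PDGFD, while the group differences at BIRC2, DCUN1D5 and DYNC2H1 are 0.02, -0.20 and 0.02.

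Among 8 genes for activation of metalloproteinases, which include proprotein convertases, the plasminogen activators and cathepsins, 6 had a higher and 2 a lower HEN mean. The lysosomal protease CTSB measured 367, 926 and 1121 FPKM across HEN versus 263, 369 and 169 FPKM across LEN, differing by 1.51 ± 0.49 (SE, adjusted p = 0.226). PLAU, urokinase, which makes plasmin, lay the other way. PLAU measured 61.9, 13.5 and 5.26 FPKM across HEN versus 103, 67.0 and 97.1 FPKM across LEN, a difference of -2.31 ± 0.77 (SE, adjusted p = 0.226). All HEN ovaries were below all LEN ovaries for PLAU, as for 1781 of the 13328 transcripts tested. BSG, a membrane glycoprotein that induces metalloproteinases in neighbouring cells, differed by 0.62 ± 0.30 (SE), and the convertase PCSK5 by 0.65 ± 0.32 (SE). Of the 8, 0 passed limma's test. At an unadjusted p under 0.05, 1 was higher (5.1% of all transcripts) and 1 lower (16.9%). Leaving out HEN replicate 1 gave 3 calls, of which 2 were higher in HEN (11.8% of all transcripts) and 1 was lower (37%). The median difference of the 8 was 0.44, and 0.71 after upper quartile scaling.

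Of 13 transcription factors and signals known to act on metalloproteinase genes, 12 had a higher HEN mean. The number was 13 after upper quartile or quantile scaling, 9 with arrayWeights, and 11 or 12 with 1 library left out. PTGS2, the inducible prostaglandin synthase, measured 8.64, 141 and 160.5 FPKM across HEN versus 4.26, 7.08 and 5.67 FPKM across LEN, differing by 3.20 ± 1.03 (SE). RUNX2, a regulator of MMP13 in mammalian bone, measured 0.975, 14.1 and 25.2 FPKM across HEN versus 0.722, 2.38 and 0.404 FPKM across LEN, differing by 2.19 ± 0.94 (SE). As for MMP2, MMP9 and MMP11, HEN replicate 1 lay among the LEN ovaries for RUNX2, and LEN replicate 2 was the highest LEN ovary. RUNX1 differed by 1.43 ± 0.60 and the ETS factor ELK3 by 1.19 ± 0.40 (SE). The AP-1 genes FOS and JUN differed by 0.05 ± 0.30 and 0.17 ± 0.29 (SE), and were named after their values were seen. None of the 13 passed (limma adjusted p = 0.226 for PTGS2 and ELK3, 0.227 for RUNX1 and RUNX2), and 2 had an unadjusted p under 0.05, both higher in HEN, where 5.1% of all transcripts were. Their median difference was 0.71, 0.47 without HEN replicate 3, 1.07 with arrayWeights and 1.15 without HEN replicate 1, where 7 of the 13 passed as higher beside 11.8% of all transcripts.

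Matrix proteins that these enzymes cut did not share one order of libraries. Of 21 measured, ACAN had a mean under 1 FPKM and was not tested. Of the other 20, 17 had a higher HEN mean, and for 15 all HEN ovaries were above all LEN ovaries, where 6.92% of all transcripts were. The 3 with a lower HEN mean, named for their direction, were LAMA1, LAMA2 and NID1. They differed by -1.22 ± 0.62, -1.20 ± 0.49 and -0.64 ± 0.44 (SE). For LAMA2 all HEN ovaries were below all LEN ovaries, as for 1781 of the 13328 transcripts. COL6A2, a chain of collagen VI, measured 292, 278.8 and 291 FPKM across HEN versus 117, 152 and 110.4 FPKM across LEN. For COL6A2 HEN replicate 1 was as high as HEN replicates 2 and 3, unlike its place among the LEN ovaries for MMP2, MMP9 and MMP11. Fibronectin (FN1) and tenascin C (TNC), named after their values were seen, had HEN replicate 2 highest and HEN replicate 3 next, as the metalloproteinases did. FN1 measured 94.0, 684 and 447 FPKM across HEN versus 68.8, 65.2 and 62.6 FPKM across LEN. TNC measured 12.6, 57.8 and 34.7 FPKM across HEN versus 3.98, 8.85 and 5.43 FPKM across LEN. The differences of COL6A2, SPARC, COL6A1 and COL3A1 were 1.19 ± 0.21, 1.01 ± 0.20, 1.70 ± 0.34 and 2.01 ± 0.44 (SE), each with a limma adjusted p of 0.226. The median over the 20 was 1.01, and without HEN replicates 2 and 3 together it was 0.92, where that of the 6 metalloproteinases was -0.37. None of the 20 passed, and 13 higher and 1 lower had an unadjusted p under 0.05, where 5.1% of all transcripts were higher and 16.9% lower. Once HEN replicate 1 was left out, 11 of the 20 were called higher in HEN (11.8% of all transcripts were) and 3 were called lower (37% of all transcripts were).

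**Figure D5:**
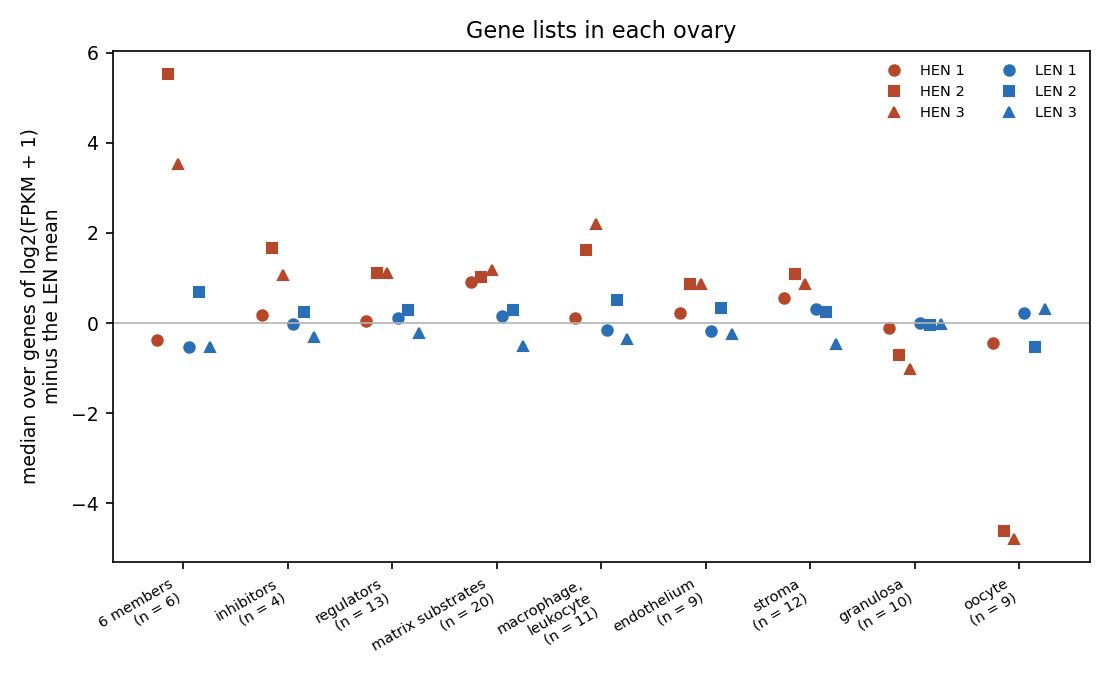
Median over the genes of each list of log2(FPKM + 1) minus the mean of the LEN ovaries, for each ovary, where n is the number of genes. The 6 members are at 5.53 and 3.54 in HEN replicates 2 and 3 and at -0.37 in HEN replicate 1, while the matrix substrates are at 0.92 to 1.19 in all 3. Each LEN ovary is part of the mean it is set against.

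The summed levels of the macrophage and leukocyte list and of the endothelial list were highest in HEN replicates 2 and 3, as the metalloproteinases were, whereas those of the granulocyte and lymphocyte lists were highest in LEN replicate 2. The summed level of 11 macrophage and leukocyte markers of 15 looked for, none at 0 in any ovary, was 834, 1545 and 1967 FPKM in HEN replicates 1, 2 and 3 and 530.04, 873 and 455 FPKM in LEN. LEN replicate 2 was thus the highest LEN ovary in this sum, as in all 6 members. It was also the highest LEN ovary in the inhibitor, activation gene, substrate, endothelial, granulocyte and lymphocyte sums. In the macrophage and leukocyte sum HEN replicate 3 was above HEN replicate 2, the reverse of their order in the 6 members. HEN replicate 1 was close to LEN replicate 2 in that sum only, with MMP9 at 6.51 against 43.1 FPKM. CD74, which overlaps another gene, made up most of both sums, at 522 FPKM (HEN replicate 1) and 512 FPKM (LEN replicate 2). Taken gene by gene as log2(FPKM + 1) less the LEN average, the 11 markers had a median of 0.10 for HEN replicate 1. For LEN replicate 2, itself part of that average, the median was 0.52. Of the granulocyte list, CSF3R and LYZ were found by symbol, with a sum of 72.5 to 132 FPKM in HEN and 22.8 to 171 FPKM in LEN. LYZ made up most of that sum, at 169 FPKM in LEN replicate 2. CSF3R measured 4.42, 6.94 and 24.7 FPKM across HEN versus 1.96, 2.49 and 1.14 FPKM across LEN, a difference of 1.88 ± 0.59 (SE, limma adjusted p = 0.226). All HEN ovaries were above all LEN ovaries for CSF3R, where 6.92% of all transcripts were. The 9 endothelial markers summed to 152, 315 and 259 FPKM in HEN and 114 to 171 FPKM in LEN. Stroma markers (12 genes) summed to 1583 to 1707 FPKM in HEN and 670.3 to 1433 FPKM in LEN. COL1A2 and COL3A1, also counted among the matrix substrates, made up most of that sum in each HEN ovary. Of the 12 genes 10 had a higher HEN mean, and CYP17A1 and THY1 a lower one. CYP17A1 measured 239.6, 0.0945 and 0.146 FPKM across HEN versus 520.5, 33.5 and 185 FPKM across LEN. THY1 differed by -0.881 ± 0.464 (SE). Smooth muscle markers (6 genes) summed to 1119 to 1341 FPKM in HEN and 428 to 935 FPKM in LEN. The 10 granulosa markers summed to 557, 136 and 162 FPKM in HEN and 394 to 608 FPKM in LEN. Of the 10, 7 had a lower HEN mean and 3 a higher one. STAR (191 FPKM) and FOXL2 (175 FPKM), which overlaps another gene, made up most of the sum in HEN replicate 1. FSHR measured 18.9, 22.2 and 13.6 FPKM across HEN versus 25.3, 19.8 and 25.4 FPKM across LEN. The 11 epithelial markers summed to 225, 123 and 91.8 FPKM in HEN and 185 to 222 FPKM in LEN. The epithelial markers did not move together. EPCAM measured 97.2, 3.07 and 2.96 FPKM across HEN versus 103, 99.2 and 116 FPKM across LEN, while KRT7 measured 49.4, 78.5 and 52.7 FPKM across HEN versus 14.05, 32.5 and 25.8 FPKM across LEN. KRT7 was thus highest in HEN replicate 2, whereas 5 of the 7 epithelial markers tested had a lower HEN mean. KRT19, which overlaps another gene, spanned 33.5 to 50.1 FPKM in HEN and 29.0 to 41.7 FPKM in LEN. The 7 lymphocyte markers summed to 4.78 to 18.6 FPKM in HEN and 11.6 to 25.2 FPKM in LEN. The 2 erythrocyte markers summed to 38.7, 102 and 507 FPKM in HEN and 38.6 to 93.8 FPKM in LEN. The part of any cell type in the metalloproteinase levels was not tested.

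Genes with the most similar pattern over the 6 ovaries were listed for each member by Pearson's r of log2(FPKM + 1). For MMP13 they were RAB30, SLC16A3 and ZC3H12C, at r of 0.999, 0.999 and 0.998. The lactate transporter gene SLC16A3 measured 5.07, 56.8 and 38.8 FPKM across HEN versus 5.41, 9.08 and 4.91 FPKM across LEN. For MMP9 they were PECAM1, EFCAB14 and COL4A3BP (r of 0.996, 0.994 and 0.993), and PECAM1, an adhesion molecule of endothelium and leukocytes, measured 37.0, 102 and 88.2 FPKM across HEN versus 31.5, 56.2 and 32.7 FPKM across LEN. For MMP11 they were KCNK13, ATP1B3 and F2R (0.998, 0.998 and 0.997), and for MMP2 they were LHFPL2, MMP11 and FNBP1L (0.997, 0.997 and 0.996). For MMP7 they were SCIN, TRA2B and ANXA7 (0.996, 0.995 and 0.993), and for MMP27 they were MYO10, ANXA1 and NDFIP1 (0.998, 0.995 and 0.994). A high r does not mean a change of like size. TRA2B measured 33.3, 41.1 and 34.8 FPKM across HEN versus 33.8, 35.0 and 34.0 FPKM across LEN. An r above 0.95 was reached by 55 (MMP7) to 453 (MMP2 and MMP11) of 10100 to 10102 transcripts compared, so each list is the top of a longer one. The values share libraries, of which 2 stand apart, or for MMP7 mainly HEN replicate 2.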

How the data were processed

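The authors deposited FPKM values in 1 table of 17191 rows, of which 22 were repeats and were used once. Aligner, counter and build are not given in the sources used here, and coordinates follow the table. Symbols are those of the table or, where it has none, were taken through Entrez identifiers from RefSeq gene names (IASCAAS_PekinDuck_T2T). Rows with neither were not searched, so a gene not found by symbol may still be present. RefSeq gives no symbol to the Entrez identifiers of MMP13 and MMP27, which are named here by the table. FPKM values are not counts and were passed to no count test.

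Depth was inferred from 567 short noncoding genes, where all 968 values under 200 fragments were whole within 0.02. Fragments of the members were taken at the shortest transcript length that made all 6 libraries whole, so the true numbers may be a common multiple. PCR copies cannot be separated, and intervals cover counting error only.

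HEN and LEN were compared as log2(FPKM + 1) with limma 3.58.1 in R 4.3.3. Transcripts had a mean of at least 1 FPKM, group was the only term and the adjusted p threshold was 0.05. The 6 members passed this filter, MMP7 only through HEN replicates 2 and 3. The code was tested on simulated data in which both groups had the spread of the LEN ovaries. The median SD per transcript was 0.47 over HEN and 0.28 over LEN, so that check does not cover the unequal spread here. The ducks are separate animals, and no label gave a batch. The members, gene lists, tests and alternatives were chosen with earlier results of these data known. Named were the members, all measured genes of the other metalloproteinase and inhibitor lists, up to 4 genes with the smallest unadjusted p from each of the other lists, and 3 genes most like each member. Cell type markers were named for high levels or after their values were seen. Alternatives were another pseudocount, filter or scaling, arrayWeights, no trend, a replicate block, sums per symbol and leaving out libraries.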

Additional observations from a re-analysis of the deposited data

How the results depend on the processing

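Over all 13328 transcripts limma called 0, with 2929 at an unadjusted p under 0.05. It called 1 with a pseudocount of 0.1, 1 after scaling to TPM, 1 without HEN replicates 2 and 3 together, and 7922 with arrayWeights, which gave HEN replicate 1 a weight of 0.114. With arrayWeights all 6 members were called (MMP2 at 2.78, MMP7 at 4.32, MMP9 at 5.40, MMP11 at 4.43, MMP13 at 7.30 and MMP27 at 4.20), all higher in HEN. The other calls with arrayWeights were 2 other metalloproteinases (1 higher, 1 lower), 3 inhibitors and 7 regulators (all higher), 5 activation genes (3 higher, 2 lower) and 16 substrates (13 higher, 3 lower). Over all 13328 transcripts that fit called 2194 higher in HEN and 5728 lower. Its largest weight, 5.62, was on LEN replicate 1, so its LEN side rested mainly on that duck. On leaving out 1 library at a time the calls ranged from 0 to 6501 transcripts, 0 to 6 members, 0 to 1 other metalloproteinases, 0 to 4 inhibitors, 0 to 3 activation genes, 0 to 7 regulators and 0 to 14 substrates, with every call made without HEN replicate 1. The differences then ranged from 1.39 to 3.08 for MMP2, 0.16 to 4.92 for MMP7, 2.13 to 5.17 for MMP9, 2.09 to 4.70 for MMP11, 2.89 to 7.56 for MMP13 and 1.85 to 4.26 for MMP27. For all 6 the lowest value came without HEN replicate 2 and the highest without HEN replicate 1. Without HEN replicates 2 and 3 together the differences were -0.079 for MMP2, -1.07 for MMP7, -0.67 for MMP9, -0.0094 for MMP11 and -1.16 for MMP13, with 1 HEN ovary left and no spread between HEN ducks. With the replicate number as a block 0 transcripts were called and the differences were those without it. An unadjusted p under 0.05 was then reached by 5 of the 6 members, all higher in HEN, as by 597 of 13328 transcripts. Same-numbered libraries deviated together at r of 0.02, 0.38 and -0.42, and differently numbered ones at -0.49 to 0.46. As each deviation is from a mean of 3 libraries, these values cannot tell whether the numbers pair ducks. The cause of these shifts was not tested.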
